A study of Mus musculus with 32 samples.

Results

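Gene expression at 10000 ppm doxycycline was compared with that at 2500 ppm in progenitors from adult mouse bone marrow. The members are the 10 libraries that the labels place in these 2 dose groups, 4 at 10000 ppm and 6 at 2500 ppm, of 32 libraries in the series and 17 from adults. The series concerns U2af1, which encodes the small subunit of the splicing factor that recognises the 3' end of introns, and S34F, a mutation of it found in myeloid neoplasms. All mice of both groups were U2af1(flox/S34F), with a floxed allele and a mutant knock-in allele. All also carried Mx1-Cre, an interferon-inducible Cre, rTA, a transactivator that responds to doxycycline, and tgU2AF1(WT), a transgene of wild-type U2AF1. All received 6 doses of polyinosinic-polycytidylic acid (pIpC), by which the floxed allele was to be deleted and the mutant one expressed, and doxycycline in the chow, which turns on the transgene. The groups thus differ in the label by the doxycycline dose alone, which is meant to set how much wild-type U2AF1 is offered beside the mutant protein. Another dose group of the same genotype and pIpC treatment received 1250 ppm (n = 4). An untreated group with the same Cre, transactivator and transgene but with U2af1(wt/wt) had neither agent (n = 3).

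As a model these groups have limits that the labels show. Mx1-Cre acts in many cell types that respond to interferon, pIpC itself provokes an interferon response, and no group received doxycycline alone or carried the deletion without it. The ages of the mice, the days of treatment and any batch of the adult libraries are not given in the sources used here. The labels do not say whether replicates came from separate mice, so p-values measure only the spread between these libraries, which may be technical. U2af1 was not analysed here, so the dose of the transgene could not be read from its own transcript. The question put to the data is whether the response to dose levels off above 2500 ppm.

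The cells were sorted as Lin- cKit+ Sca1-, a gate that holds the committed progenitors of the myeloid, erythroid and megakaryocytic lineages. In these cells GATA1 drives the red-cell and platelet programmes and C/EBP factors drive the granulocyte programme. Neutrophil precursors make their granules in order: primary granules with myeloperoxidase and elastase come first, at the progenitor stage, and later granules with lactoferrin, cathelicidin and gelatinase come in more mature cells that have largely left this gate. Splicing factors of the U2AF and SF3 complexes are expressed in all of them.

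The promoters of 4 genes are shown because the transcripts they drive separate the 10000 ppm libraries from one another. Ngp and Ltf encode later granule proteins, and Hbb-bt and Alas2 encode an adult beta-globin and the erythroid enzyme that opens heme synthesis. The sequences are from RefSeq on GRCm38.p6, 5' to 3' on the gene's own strand, and stop before the first base that RefSeq or GENCODE M21 counts as transcribed. They lie at chr9:110419558-110419746 (plus strand) for Ngp, chr9:111019042-111019270 (plus) for Ltf, chr7:103813997-103814173 (minus) for Hbb-bt and chrX:150547167-150547374 (plus) for Alas2. Capitals mark matches on either strand to a core of the C/EBP motif, TTNCNNAA, in Ngp and Ltf, and to the KLF core CACCC or the GATA core GATAA in Hbb-bt and Alas2.
Ngp: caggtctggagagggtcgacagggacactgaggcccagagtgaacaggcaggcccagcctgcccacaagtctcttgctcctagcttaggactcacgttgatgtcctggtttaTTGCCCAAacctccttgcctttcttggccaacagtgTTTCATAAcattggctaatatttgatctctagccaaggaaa
Ltf: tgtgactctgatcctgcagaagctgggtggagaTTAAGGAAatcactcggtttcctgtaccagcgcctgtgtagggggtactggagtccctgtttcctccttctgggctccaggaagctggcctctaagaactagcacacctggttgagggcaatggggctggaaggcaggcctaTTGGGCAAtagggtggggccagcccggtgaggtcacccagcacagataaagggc
Hbb-bt: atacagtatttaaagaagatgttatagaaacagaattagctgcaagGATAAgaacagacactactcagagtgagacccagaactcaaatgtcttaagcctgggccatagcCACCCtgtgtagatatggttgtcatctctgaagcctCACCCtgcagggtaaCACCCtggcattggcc
Alas2: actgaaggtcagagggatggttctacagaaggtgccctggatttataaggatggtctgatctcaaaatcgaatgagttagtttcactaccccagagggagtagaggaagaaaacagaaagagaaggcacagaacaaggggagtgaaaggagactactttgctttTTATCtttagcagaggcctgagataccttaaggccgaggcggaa
Ngp and Ltf each held 2 matches to TTNCNNAA. Such a match stood in 31.1% of all 32851 RefSeq promoter windows cut to the length of the Ngp stretch and in 35% cut to that of Ltf. Hbb-bt held 3 matches to CACCC, which stood in 40.2% of windows of its length, and 1 to GATAA, which stood in 17.7%. Alas2 held 1 match to GATAA, against 19.8% of windows of its length, and none to CACCC, which stood in 45.9%. No motif overlapped another. A match is a description of these letters and not a site shown to be bound.

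The total count per library was 32.5 to 67.5 M at 10000 ppm and 45.8 to 59.2 M at 2500 ppm, where M is 1000000 counts. Within each group, every pair of libraries differed beyond counting error. The gate could be checked in part. Kit was at 492, 484, 694 and 760 counts per 1000000 counts of the library (CPM) in the 10000 ppm libraries 1 to 4 and at 541 to 676 CPM at 2500 ppm, and Ly6a, which encodes Sca1, was not analysed here. Of the lineage markers, Itgam (CD11b) was at 201, 225, 51.7 and 17.1 CPM at 10000 ppm, against a lowest value of 22.9, a median of 58.3 and a highest of 107 CPM at 2500 ppm. The 10000 ppm libraries 1 and 2 therefore carried more transcript of a marker that the sort removes than any 2500 ppm library, and library 4 carried less. In a principal component analysis of the 10 libraries over 1000 genes, the first component held 38.7% of the variance and put libraries 1 and 2 at -34.4 and -56.1, libraries 3 and 4 at 11.4 and 30.5, and the 2500 ppm libraries at -6.6 to 25.1. The median of every gene list is therefore given below with and without libraries 1 and 2, a choice made after seeing the data. Values of some single genes that moved with these libraries are given in the same way.

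No gene passed the test between 10000 and 2500 ppm. Of 13338 genes tested, 0 (0%) had an adjusted p under 0.05 in the quasi-likelihood test of edgeR (Benjamini-Hochberg), and the smallest adjusted p was 0.148. Before adjustment 1445 genes, 10.8% of those tested, had a p under 0.05, where chance gives 666.9, and DESeq2 called 50 genes, 31 higher and 19 lower. The median absolute log2 fold change was 0.15, with a median SE of 0.17. For 9200 genes, 69.0% of those tested, the 95% interval of the difference lay within 2-fold in either direction. For the rest the data did not bound the difference that tightly, and 690 genes had a point value beyond 2-fold. The normalised values of the 2 groups did not overlap for 177 genes (1.33%), 76 higher and 101 lower at 10000 ppm. Leaving out the 10000 ppm library 3 raised the count of genes that passed from 0 to 20, and leaving out library 4 raised it to 2. An interval within 2-fold was also held by 9074 genes (68%) at 2500 against 1250 ppm and by 8291 (62.2%) at 10000 against 1250 ppm. Genes passed in both of those comparisons, so the share of 69.0% does not show that the response levels off.

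The lower dose step, from 1250 to 2500 ppm, is a 2-fold rise in dose, and the upper step a 4-fold rise. In the same fit 255 genes (1.91%) passed at 2500 against 1250 ppm, 73 higher and 182 lower, with a median absolute log2 fold change of 0.19. That count rests on adjusted p-values close to the threshold, the smallest being 0.0443. It was 0 when any one of 11 of the 17 adult libraries was left out (1 and 3 at 10000 ppm, 1, 2, 5 and 6 at 2500 ppm, 1, 4 and 5 at 1250 ppm, and 1 and 2 of the untreated group). It was 457 without library 2 at 10000 ppm, 926 without library 4 at 2500 ppm, and 0 with no filter on low counts, where 1106 genes passed in DESeq2. Both steps share the 2500 ppm libraries, so a high or low value there moves them in opposite directions. The test of the upper step against the lower one called 0 of 13338 genes, where 680 had an unadjusted p under 0.05 and chance gives 666.9. Taken per doubling of the dose the same contrast also called 0 genes, but 1323 had an unadjusted p under 0.05. No single gene was shown to respond differently at the 2 steps. Over both steps together, 2420 genes (18.1%) passed at 10000 against 1250 ppm, 1005 higher and 1415 lower, and leaving out 1 library gave 1118 to 2809. The count fell by more than 1.5 times without library 2 at 10000 ppm (1363) or without library 1, 4 or 5 at 1250 ppm (1396, 1387 and 1118).

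For those 2420 genes the place of the 2500 ppm group between the other doses can be described, though not tested, since all values come from the same fit. The 1005 genes higher at 10000 than at 1250 ppm had a median log2 difference of 1.14, of which the lower step held a median of 56.2% (quartiles 40.3% and 72.1%). The 1415 lower genes had a median log2 difference of -0.38, with a median of 65.6% in the lower step (quartiles 51.0% and 76.4%). Per doubling of dose the lower step was the larger for the median gene of both classes, as the upper step spans 2 doublings. The genes were chosen by the size of both steps together in these same libraries. That choice can itself move the share held by the lower step, so the share does not show that the response levels off. Leaving out 1 library at a time gave 45.4% to 66.5% for the higher genes and 55.8% to 73.3% for the lower ones.

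The genes with the smallest p in each direction, 8 and 8, are given with their values although none passed. Of these 16 genes, 9 did not overlap between the groups, and since p chose them that share is not read against the 1.33% of all genes. Tox (ENSMUSG00000041272, chromosome 4, 6686353 to 6991557, minus strand), a nuclear factor of lymphoid development, was at 2.05, 2.13, 2.45 and 1.92 CPM in libraries 1 to 4 at 10000 ppm. At 2500 ppm it had a lowest value of 0.533, a median of 0.679 and a highest of 1.20 CPM, so all 10000 ppm libraries lay above all 2500 ppm ones. Its log2 fold change was 1.51 (SE 0.24, 95% interval 0.996 to 2.02, adjusted p = 0.148), against 0.11 at the lower step.

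Ctse (ENSMUSG00000004552, chromosome 1, 131638306 to 131675505, plus strand), an aspartic protease, was at 51.1, 57.5, 45.3 and 48.9 CPM at 10000 ppm and at 14.1, 20.03 and 36.6 CPM as the lowest, median and highest value at 2500 ppm. The 4 libraries at 10000 ppm were close together and clear of the others, with a log2 fold change of 1.17 (SE 0.24, adjusted p = 0.267). Timp3, an inhibitor of matrix metalloproteinases, had a log2 fold change of 1.27 (SE 0.27), and Abcg1, a cholesterol exporter, 0.57 (SE 0.13). Neither overlapped between the groups. Abcg1 also passed the test at the lower step, with a log2 fold change of 0.55 (adjusted p = 0.0476), so its point values were alike at both steps. Pacs1, a sorting protein of the trans-Golgi, had a log2 fold change of 0.44 (SE 0.10), with library 3 at 86.9 CPM inside the 2500 ppm range of 74.5 to 87.1 CPM.

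The matrix genes Comp and Prg4 were uneven among the 10000 ppm libraries. Comp, a cartilage matrix protein, was at 2.99, 2.25, 1.72 and 0.557 CPM at 10000 ppm and 0.363 to 0.901 CPM at 2500 ppm. Prg4, the joint lubricant lubricin, was at 3.10, 1.53, 1.86 and 0.0871 CPM at 10000 ppm and 0.0430 to 0.511 CPM at 2500 ppm. In both, libraries 1 to 3 lay above the 2500 ppm group and library 4 lay within it. The log2 fold changes were 1.87 (SE 0.37) and 3.11 (SE 0.69).

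Dab2 (ENSMUSG00000022150, chromosome 15, 6299788 to 6440712, plus strand), an endocytic adaptor, had the smallest p among genes with lower values. It was at 6.49, 4.16, 7.33 and 4.90 CPM at 10000 ppm against 9.97, 12.9 and 18.3 CPM as the lowest, median and highest value at 2500 ppm. The groups did not overlap, and the log2 fold change was -1.21 (SE 0.21, 95% interval -1.66 to -0.76, adjusted p = 0.206), against -0.40 at the lower step. The other 7 had smaller differences. Pdia6, a disulfide isomerase of the endoplasmic reticulum, had a log2 fold change of -0.50 (SE 0.11), Ddost, a subunit of the oligosaccharyltransferase there, -0.35 (SE 0.08), and Dbi, which binds acyl-CoA, -0.47 (SE 0.10). Etfb, an electron carrier of mitochondrial fatty acid oxidation, had -0.35 (SE 0.08), Mrpl44, a protein of the mitochondrial ribosome, -0.28 (SE 0.07), Rbks, ribokinase, -0.36 (SE 0.08), and Rapgef5, a guanine nucleotide exchange factor, -0.49 (SE 0.12). Of these 7, Rbks, Etfb, Ddost and Rapgef5 did not overlap between the groups. Etfb also passed at the lower step, with -0.33 (adjusted p = 0.0465). Several of the 16 overlap another annotated gene, among them Timp3 with Syn3 and Prg4 with Tpr, and the use of strand in counting is not given in the sources used here, so such reads cannot be told apart.

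**Figure D1:**
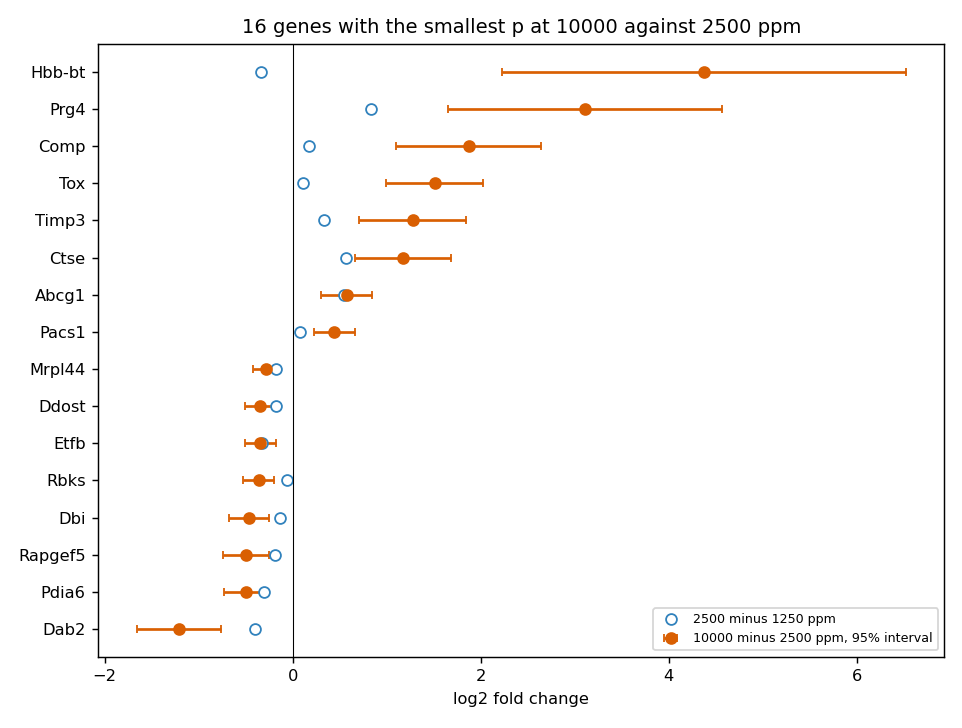
Log2 fold change on the x axis for the 16 genes with the smallest p at 10000 against 2500 ppm (8 per direction). Filled points with 95% intervals are the upper step and open points the lower step; the interval of Hbb-bt, 2.23 to 6.52, is far wider than that of Rbks, -0.53 to -0.20, and none of the 16 passed the adjusted threshold.

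Lineage genes were described with 22 lists, of which 21 had tested members. The list genes, counted once each, came to 286 tested genes of 364, and 145 of them (50.7%) had a 95% interval within 2-fold. No list gene passed the test, 59 (20.6%) had an unadjusted p under 0.05 beside 10.8% of all genes, and 7 (2.45%) did not overlap between the groups beside 1.33% of all genes. The median log2 fold change of all tested genes was -0.01. At 10000 against 1250 ppm, where 7.53% of all genes passed as higher and 10.6% as lower, list members passed too. Higher were 5 of 6 tested eosinophil genes, 4 of 18 stem, 3 of 16 red-cell and 2 of 15 heme genes. So were 2 of 10 T and NK, 1 of 15 B-cell and 1 of 10 stroma genes. Lower were 6 of 18 cell division genes and 1 each of the heme, primary granule and myeloid factor lists. These calls were not read by list without libraries 1 and 2. In bulk RNA fewer cells of a type and less RNA per cell cannot be told apart, so the list values below are levels of transcript and not numbers of cells.

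**Figure D2:**
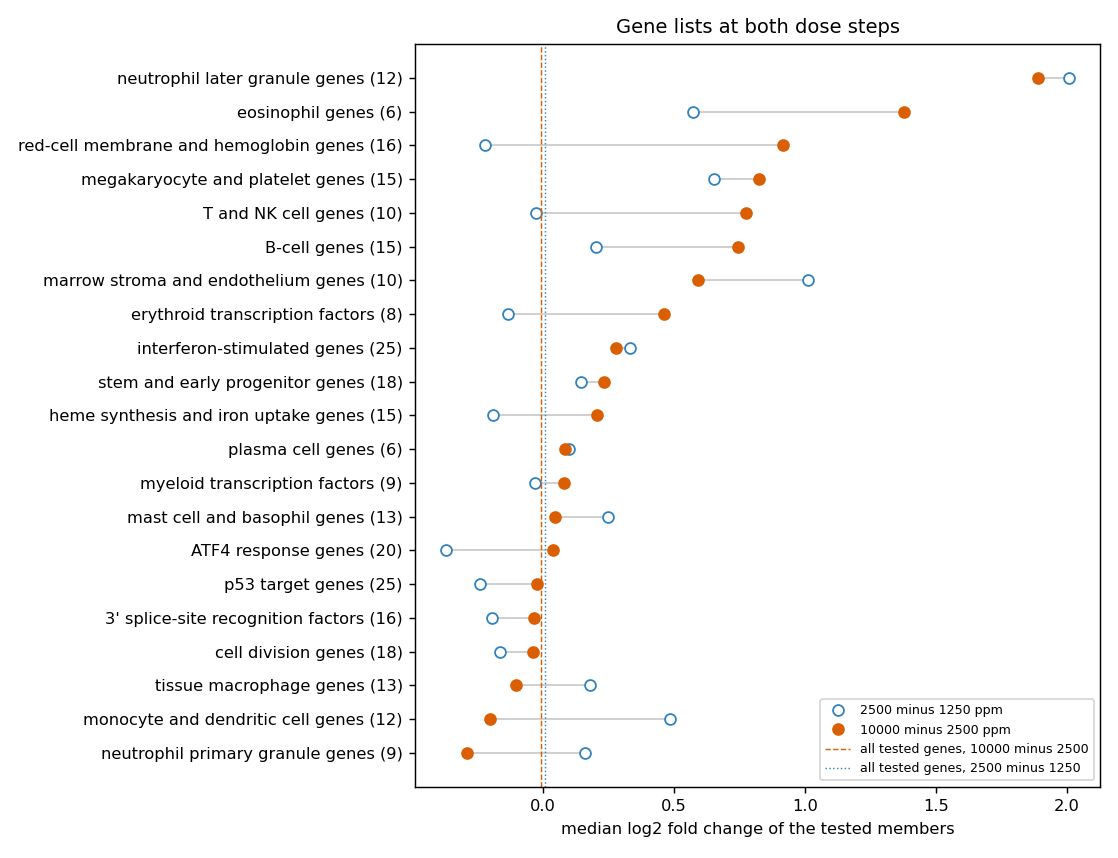
Median log2 fold change of the tested members of each list (number in brackets) at the upper step (filled) and at the lower step (open), with the medians of all tested genes as vertical lines. The later granule list has the highest medians at both steps, 1.89 and 2.01, while the red-cell list has 0.92 at the upper and -0.22 at the lower step; the steps share the 2500 ppm libraries, so the distance between 2 points has no test.

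The red-cell genes had higher point values at 10000 ppm. Of the 16 tested members of the red-cell membrane and hemoglobin list (of 22), all 16 had a log2 fold change above 0 and none passed the test. The median was 0.92 at the upper step and -0.22 at the lower step. As the mean log2 CPM of its members, the list stood at 5.13, 5.86, 4.77 and 5.73 in the 10000 ppm libraries, and at 3.18, 4.11 and 5.38 as the lowest, median and highest value at 2500 ppm. Every 10000 ppm library lay above the 2500 ppm median, and library 4 of the 2500 ppm group, the highest there, lay among them. With the 10000 ppm libraries 1 and 2 left out the median was 1.07, and without library 4 it was 0.61.

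Hbb-bt (ENSMUSG00000073940, chromosome 7, 103812524 to 103813996, minus strand) was carried by a single library, with 9.26, 420, 7.58 and 9.44 CPM at 10000 ppm and 2.67, 5.32 and 9.34 CPM as the lowest, median and highest value at 2500 ppm. The other three libraries lay within or just above the top of the 2500 ppm range. Its log2 fold change was 4.38 (SE 1.02, adjusted p = 0.267) with all libraries and 0.71 without library 2. Its near-identical neighbour Hbb-bs was not analysed here, so reads shared between the pair cannot be assigned. Slc4a1, the anion exchanger of the red-cell membrane, followed the same pattern with 6.03, 164, 3.39 and 6.76 CPM at 10000 ppm and 1.09 to 5.02 CPM at 2500 ppm. Sptb, a spectrin of the membrane skeleton, was at 35.9, 61.1, 14.1 and 24.5 CPM against 4.79 to 17.4 CPM, with a log2 fold change of 1.78 (SE 0.46) that was 0.98 without libraries 1 and 2. Epb41, protein 4.1 of that skeleton, was at 267, 368, 273 and 285 CPM against 235 to 257 CPM, the only member of the list with no overlap, and its difference was small at 0.28 (SE 0.08).

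The transcription factors behind that programme showed a lesser shift. Of the 8 tested erythroid factors (of 12), 7 had a point value above 0 and 1 below, with a median of 0.46 against -0.13 at the lower step, and none passed. The median was 0.16 without library 4 at 10000 ppm and 0.56 without libraries 1 and 2. Gata1, the master regulator of the lineage, was at 38.6, 33.3, 43.4 and 97.4 CPM at 10000 ppm and 14.53, 25.9 and 73.2 CPM as the lowest, median and highest value at 2500 ppm. All 10000 ppm libraries exceeded the 2500 ppm median, library 4 by the most, and the ranges overlapped, with a log2 fold change of 0.72 (95% interval -0.18 to 1.63), or 1.13 without libraries 1 and 2. Gfi1b, a repressor needed by red cells and platelets, had 0.77 (-0.08 to 1.62), and Nfia, which favours the erythroid fate, 0.64 (-0.17 to 1.45). Leaving out 1 library at a time gave 0.26 to 1.15 for Gata1, 0.38 to 1.13 for Gfi1b and 0.29 to 0.91 for Nfia. E2f2, a cell cycle factor of late erythroblasts, was at 153, 172, 44.0 and 34.6 CPM, high in libraries 1 and 2 and within the 2500 ppm range of 42.2 to 82.8 CPM or below it in libraries 3 and 4.

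Heme synthesis and iron uptake genes had small differences, mostly above 0. The 15 tested members (of 16) had a median of 0.21, with 12 above 0 and 3 below. An unadjusted p under 0.05 was found for 4 of them in edgeR, and none passed. The list stood at 5.55 to 5.91 mean log2 CPM at 10000 ppm and at 5.3 to 5.73 at 2500 ppm. For 14 of the 15 the 95% interval lay within 2-fold. The exception was Alas2 (ENSMUSG00000025270, chromosome X, 150547375 to 150570638, plus strand), at 3.10, 118, 1.23 and 2.73 CPM at 10000 ppm and 0.533 to 2.17 CPM at 2500 ppm. As with Hbb-bt, library 2 set most of its log2 fold change of 4.40 (SE 1.06), which was 0.69 without that library. The mean over the list was 0.42, above the median. The median was 0.21 without libraries 1 and 2 and 0.12 without library 4. Fech, the enzyme that inserts iron into the ring, had 0.22 (SE 0.09), Fam210b 0.22 (SE 0.10), and Slc25a38, the mitochondrial glycine carrier, 0.29 (SE 0.13).

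Megakaryocyte and platelet genes had point values above 0 in all 15 tested members (of 20), and 11 of the 15 had an unadjusted p under 0.05, but none passed after adjustment. The median was 0.82 at the upper and 0.65 at the lower step, and 10 of the 15 passed as higher at 10000 against 1250 ppm, where 7.53% of all genes did. The list stood at 3.60, 4.39, 2.93 and 4.03 mean log2 CPM in the 10000 ppm libraries and at 2.35 to 3.23 at 2500 ppm, so that libraries 1, 2 and 4 lay above the whole 2500 ppm range. Without libraries 1 and 2 the median was 0.63. Plek, the platelet protein pleckstrin, was at 96.0, 156.5, 59.6 and 123 CPM against 51.3, 67.0 and 90.2 CPM as the lowest, median and highest value at 2500 ppm. Libraries 1, 2 and 4 lay above the 2500 ppm range and library 3 within it, and the log2 fold change was 0.69 (SE 0.23, adjusted p = 0.311 in edgeR) after 0.57 at the lower step, and 0.45 without libraries 1 and 2. Gp9, part of the von Willebrand receptor, had a log2 fold change of 0.71 (SE 0.26), and Ppbp, a platelet chemokine, 2.01 (SE 0.74) with no library above 2.16 CPM.

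Stem and early progenitor genes had a median of 0.23 over 18 tested members (of 19), with 13 above 0 and 5 below. It rested on library 4 at 10000 ppm, without which it was 0.03, and it was 0.42 without libraries 1 and 2. Mycn, a MYC family factor, was at 7.65, 7.38, 7.28 and 12.3 CPM at 10000 ppm against 3.06 to 5.92 CPM, with no overlap and a log2 fold change of 1.02 (SE 0.32). Hlf, a factor of stem cells, had 0.39 (95% interval -0.01 to 0.79). Cd48, a surface protein that stem cells lack, had -0.31 (-0.62 to -0.01), and -0.02 without libraries 1 and 2. Library 4 had the highest level of the list, at 6.54 mean log2 CPM, against 5.58 to 5.87 in libraries 1 to 3 and 5.47 to 6.07 at 2500 ppm. That library was also the highest of the 4 for Gata1, Gfi1b, Nfia and Mycn.

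**Figure D3:**
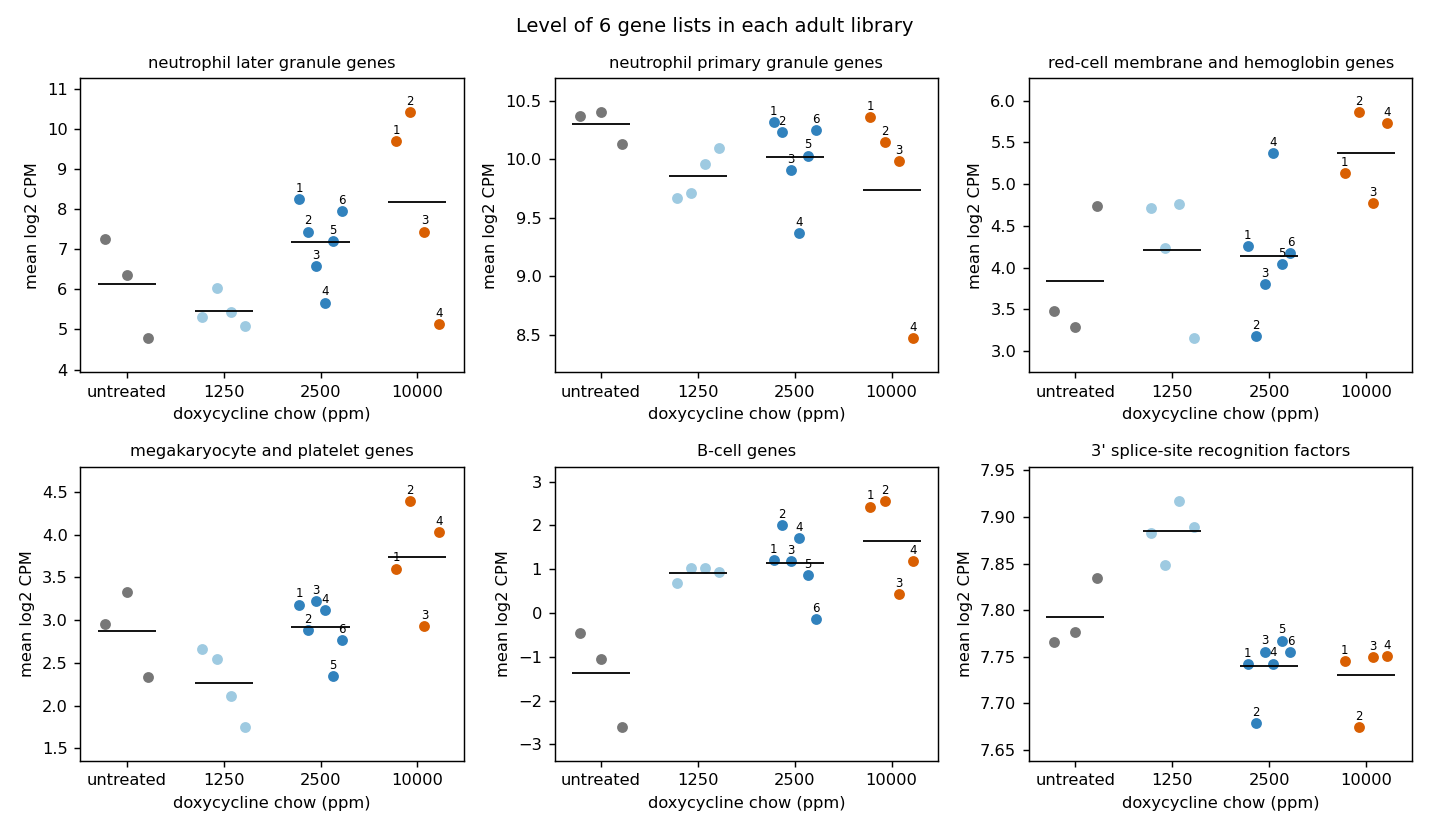
Mean log2 CPM of 6 gene lists (y axis) in each adult library by doxycycline dose in the chow (x axis). Each point is a library, numbered at 2500 and 10000 ppm, and the line is the group mean; the later granule level spans 5.14 to 10.41 at 10000 ppm, while the splice-site factor level spans 7.67 to 7.75 there.

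Primary and later granule genes had medians of opposite sign, a difference that was not tested. The 9 tested primary granule genes (of 12) had a median of -0.29 at the upper and 0.16 at the lower step, with 7 below 0 and 2 above. The upper-step median was 0.002 without library 4 at 10000 ppm and -0.55 without libraries 1 and 2. Mpo, myeloperoxidase, was at 25104, 22992, 29583 and 13290 CPM at 10000 ppm and 21909, 29164 and 33280 CPM as the lowest, median and highest value at 2500 ppm. Library 4 was far below the rest and the other libraries were inside the 2500 ppm range, for a log2 fold change of -0.34 (95% interval -0.71 to 0.03). Ctsg, cathepsin G, had -0.51 (SE 0.16), Prss57, a serine protease, -0.39 (SE 0.18), and Ms4a3, a marker of granulocyte and monocyte progenitors, -0.41 (SE 0.20). Of the later granule genes, all 12 tested members (of 16) had point values above 0 and 8 had an unadjusted p under 0.05, with a median of 1.89 at the upper and 2.01 at the lower step, and 11 of the 12 passed as higher at 10000 against 1250 ppm, where 7.53% of all genes did.

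The later granule level rested on which 10000 ppm libraries were read. It was 9.70, 10.41, 7.44 and 5.14 mean log2 CPM in libraries 1 to 4, against 5.67, 7.31 and 8.24 as the lowest, median and highest value at 2500 ppm. Libraries 1 and 2 thus stood above the whole 2500 ppm group, library 3 at its middle and library 4 beneath it. Ngp (ENSMUSG00000032484, chromosome 9, 110419747 to 110423012, plus strand), one of the promoters printed above, was at 16380, 18575, 2621 and 344 CPM against 574.5 to 5685 CPM. Ltf, lactoferrin, was at 9003, 10812, 1441 and 197 CPM against 305 to 2807 CPM, in the same order of libraries. Mmp9, gelatinase, was at 196, 765, 38.2 and 8.69 CPM, and Ly6g, the surface marker by which neutrophils are removed in many sorts, at 59.4, 91.9, 8.17 and 1.27 CPM. Mmp8, a collagenase, had a log2 fold change of 2.45 (SE 0.78), and Retnlg, a secreted neutrophil protein, 3.17 (SE 0.93). At 1250 ppm the list level was 5.1 to 6.04 mean log2 CPM. The 10000 ppm library 4 lay within that range and libraries 1 to 3 above it. How many members passed against 1250 ppm was not read without libraries 1 and 2.

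With libraries 1 and 2 left out, the median of the later granule list was -0.74, so that both granule lists were then below 0. No gene passed between 10000 and 2500 ppm in edgeR in that fit either, with 1173 at an unadjusted p under 0.05. The same 2 libraries carried eosinophil and B-cell transcripts. The 6 tested eosinophil genes (of 10) had a median of 1.38, which was -0.38 without libraries 1 and 2, and Prg2, the major basic protein, was at 758, 1197, 154 and 23.4 CPM against 71.05 to 293 CPM. Prg3, its relative, had a log2 fold change of 2.08 (SE 0.66), Alox15, a lipoxygenase, 2.88 (SE 0.90), and Il5ra, part of the interleukin-5 receptor, 0.84 (SE 0.30). The 15 tested B-cell genes (of 20) had a median of 0.74 with all libraries and -0.46 without the pair. Blk, a B-cell kinase, was at 1.01, 1.28, 0.178 and 0.331 CPM at 10000 ppm and 0.0444 to 0.425 CPM at 2500 ppm, so that libraries 1 and 2 stood above the 2500 ppm range and libraries 3 and 4 within it. Its log2 fold change was 1.47 (SE 0.72), that of Ms4a1 (CD20) 1.62 (SE 0.84), Il7r, the interleukin-7 receptor, 0.84 (SE 0.48), and Cd22 1.06 (SE 0.62), all from levels under 7 CPM. With the pair left out the value of Blk was 0.04 and that of Il5ra 0.38. The part that cells outside the gate have in these differences was not tested.

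**Figure D4:**
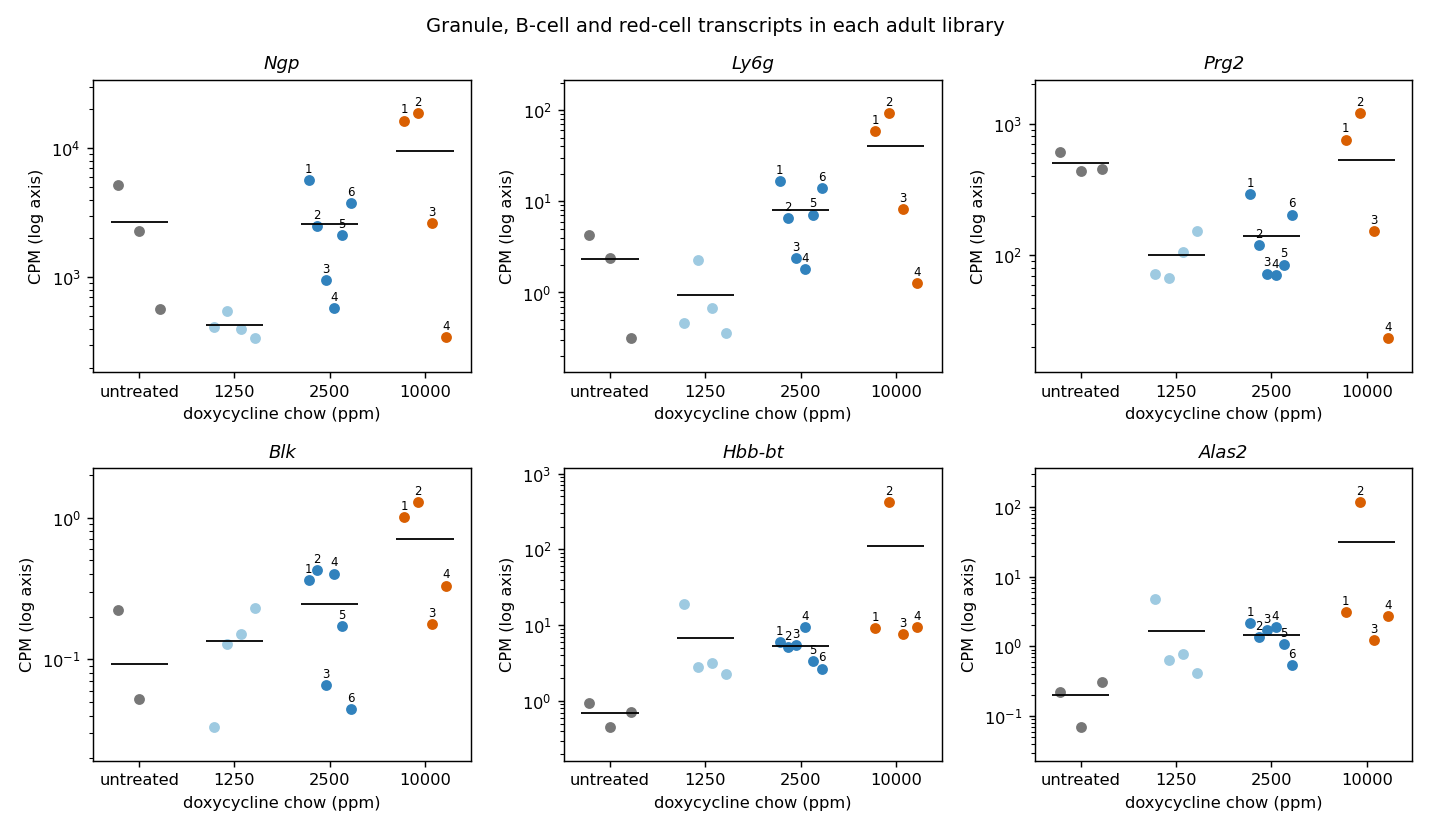
CPM on a log axis in each adult library by dose for later granule genes (Ngp, Ly6g), an eosinophil gene (Prg2), a B-cell gene (Blk) and red-cell genes (Hbb-bt, Alas2); points are libraries, numbered at 2500 and 10000 ppm, lines are arithmetic means, and 1 untreated library at 0 CPM for Blk cannot be drawn. Libraries 1 and 2 of the 10000 ppm group are the highest points for the granule, eosinophil and B-cell genes, and library 2 alone for Hbb-bt (420 CPM) and Alas2 (118 CPM).

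Genes of other cell types outside the gate were also read. The 10 tested T and NK cell genes (of 16) had a median of 0.78 and of -0.004 without libraries 1 and 2. Cd3g, a chain of the T-cell receptor complex, was at 0.336, 1.66, 0.124 and 0.0871 CPM against 0.0340 to 0.181 CPM, and Bcl11b, a T-cell factor, and Cd3d were likewise highest in library 2, at 2.57 and 2.28 CPM. The log2 fold change of Cd3g was 2.58 with all libraries and 0.28 without libraries 1 and 2. Nkg7, a granule membrane protein that progenitors also express, went the other way with -0.38 (SE 0.15). Cd3e and Cd8a were in the table but too low to test. The 10 tested stroma and endothelium genes (of 14) had a median of 0.59, or 0.13 without libraries 1 and 2, and summed to 21.01 to 35.2 CPM at 10000 ppm and 8.52 to 29.5 CPM at 2500 ppm. Within them Dcn, decorin, had 2.44 (SE 0.80), Lepr, the leptin receptor, 1.79 (SE 0.83), Col1a1, a collagen chain, 1.09 (SE 0.55), and Tek, the angiopoietin receptor, which stem cells share, 0.66 (SE 0.37). Without the pair these were 0.84, 0.73, -0.93 and 1.14, and Lepr was 0.38 without library 2 alone. The 13 tested macrophage genes (of 15) had a median of -0.10, with no unadjusted p under 0.05. That median was -0.70 without libraries 1 and 2, -0.66 without library 2 alone and 0.29 without library 3. The list summed to 191 to 540 CPM at 10000 ppm and to 209 to 478 CPM at 2500 ppm. Slc40a1, the iron exporter, had 0.26 (SE 0.26), Adgre1 (F4/80) -0.27 (SE 0.29), Mrc1, the mannose receptor, -0.38 (SE 0.47), and Cd163, the hemoglobin scavenger receptor, -0.31 (SE 0.42).

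Monocyte and dendritic cell genes had a median of -0.20 over 12 tested members (of 16), against 0.48 at the lower step, with 9 below 0 and 3 above. The upper-step median was -0.27 without libraries 1 and 2. F13a1, the factor XIII chain of monocyte precursors, was at 385, 417, 511 and 359 CPM at 10000 ppm and 583, 686 and 860 CPM as the lowest, median and highest value at 2500 ppm. The groups did not overlap, and the log2 fold change was -0.74 (SE 0.22, adjusted p = 0.298). Emb, an adhesion protein, had -0.45 (SE 0.15), while Cd74, the invariant chain of antigen presentation, had 0.96 (SE 0.50) and Zbtb46, a dendritic cell factor, 0.75 (SE 0.40). The 9 tested myeloid transcription factors (of 12) had a median of 0.08, which was -0.30 without libraries 1 and 2 and -0.13 without library 2 alone. Cebpa, which starts granulocyte fate, was at 242, 243, 247 and 184 CPM against 250 to 307 CPM, with no overlap and a log2 fold change of -0.28 (SE 0.09). Nfe2l2, the factor of the oxidative stress response, was at 172, 152, 149 and 154 CPM against 125 to 148 CPM, also with no overlap, and differed by 0.18 (SE 0.06). Egr1, an immediate early gene, had 0.82 (SE 0.43), with 757 CPM in library 2 and 254 CPM or less in the others and a value of 0.02 without libraries 1 and 2, and Zeb2 -0.16 (SE 0.11).

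Mast cell, basophil and plasma cell genes had medians near 0 with all libraries. The 13 tested mast cell and basophil genes (of 16) had a median of 0.05 and the 6 plasma cell genes (of 8) one of 0.08. Without libraries 1 and 2 these were -0.12 and -0.55, and without library 2 alone the plasma cell median was -0.07. Mitf, a mast cell factor, had -0.32 (SE 0.12), Fcer1a, a chain of the IgE receptor, 0.57 (SE 0.32), Csf1, a growth factor, 0.26 (SE 0.18), and Il1rl1, the interleukin-33 receptor, 0.43 (SE 0.41). Irf4, a factor of plasma cells, had 1.01 (SE 0.48), Mzb1, a chaperone of antibody secretion, 0.83 (SE 0.62), Xbp1, a factor of the unfolded protein response, -0.21 (SE 0.13), and Derl3 -0.36 (SE 0.30).

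Interferon-stimulated genes had point values above 0 in 21 of 25 tested members (of 26), with a median of 0.28 at the upper and 0.33 at the lower step. None passed, and 10 passed as higher and 1 as lower at 10000 against 1250 ppm, where 7.53% and 10.6% of all genes did. All 3 dose groups had the same 6 doses of pIpC. Rsad2 (viperin), an antiviral enzyme, was at 4.49, 28.5, 3.23 and 5.91 CPM against 2.04 to 4.55 CPM, and its log2 fold change was 1.53 (SE 0.47) with library 2 and 0.32 without it. Oas3, which makes the activator of RNase L, had 1.10 (SE 0.34), Irf7, an amplifier of the response, 0.90 (SE 0.34), and Ddx58, the RNA sensor RIG-I, 0.41 (SE 0.16). Without libraries 1 and 2 the median of the list was 0.15, and Oas3, Irf7 and Ddx58 had 0.10, 0.24 and 0.10. Against the untreated group, which had no pIpC, the list median was -0.22 at 10000 ppm and -0.56 at 2500 ppm. That group also differs in genotype and doxycycline.

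The p53 target list had a median of -0.02 at the upper and -0.24 at the lower step over 25 tested members (of 26). At the upper step 12 were above 0 and 13 below. The list of ATF4, the factor of the integrated stress response, had 0.04 and -0.37 over 20 (of 24). At 10000 against 1250 ppm 4 p53 targets passed as higher and 5 as lower. Of the ATF4 genes 1 passed as higher and 4 as lower, where 7.53% and 10.6% of all genes did. Without libraries 1 and 2 the upper-step medians were -0.06 and 0.02. Btg2, an antiproliferative p53 target, had 0.88 (SE 0.34), Phlda3, an inhibitor of AKT, -0.74 (SE 0.39), Rrm2b, a subunit of ribonucleotide reductase, 0.24 (SE 0.13), and Trp53inp1 0.37 (SE 0.20). Of the ATF4 genes, Ddit4, an inhibitor of mTOR signalling, had 0.56 (SE 0.24), Slc7a11, the cystine carrier, 0.94 (SE 0.47), Ddit3 (CHOP) 0.38 (SE 0.20), and Trib3 1.21 (SE 0.65). Without libraries 1 and 2 Btg2 had -0.052, Phlda3 -0.41, Rrm2b -0.063 and Trp53inp1 -0.006. In that fit Ddit4 had 0.735, Slc7a11 -0.48, Ddit3 0.11 and Trib3 1.04. Genes encoded by the mitochondrial genome were not analysed here.

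Splicing factors of the 3' splice site were closely bounded. All 16 tested members (of 18) had a 95% interval within 2-fold at the upper step, beside 69.0% of all genes. Of 9610 genes with a mean of at least 50 counts, 8450 had one, so such intervals are not particular to this list. The median of the list was -0.03, or -0.01 without libraries 1 and 2. The level was 7.75, 7.67, 7.75 and 7.75 mean log2 CPM in the 10000 ppm libraries and 7.68 to 7.77 at 2500 ppm. U2af2 (ENSMUSG00000030435, chromosome 7, 5062143 to 5079938, plus strand), which encodes the large subunit that pairs with U2AF1, was at 291, 281, 277 and 281 CPM at 10000 ppm and 266, 285 and 310 CPM as the lowest, median and highest value at 2500 ppm. The 4 libraries lay inside the 2500 ppm range, and the log2 fold change was -0.02 (95% interval -0.15 to 0.12). At the lower step U2af2 and Sf3a1, a subunit of the U2 particle, were the 2 of 16 that passed (1.36% of all genes passed as lower), both lower at 2500 ppm by -0.29 (adjusted p = 0.0443 for each), within a set of calls that the loss of 1 library could bring to 0. For U2af2 the difference between the steps had an unadjusted p of 0.0218, which did not pass after adjustment over all genes. U2af2 had also passed at the lower step in 2500 ppm libraries that both steps share, and choosing it for that can itself lower this p.

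The other members of that list lay close to 0 at the upper step. Sf3a1 had -0.08 (SE 0.07), Sf3a3, a partner in the same complex, -0.11 (SE 0.08), and Rbm17, a factor that acts at the 3' splice site, -0.09 (SE 0.06). Zrsr1, a relative of U2AF1, was the exception, at 18.2, 25, 17.4 and 18.9 CPM against 12.5, 14.47 and 16.4 CPM as the lowest, median and highest value at 2500 ppm. It did not overlap between the groups and had a log2 fold change of 0.44 (SE 0.13, adjusted p = 0.297). Zrsr1 lies within Commd1, on the opposite strand, so reads of the pair cannot be told apart without strand. At 10000 against 1250 ppm, 7 of the 16 passed as lower, where 10.6% of all genes did, and Zrsr1 as higher.

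Cell division genes were bounded as closely, as were most genes with a mean of at least 50 counts. All 18 tested members (of 18) had an interval within 2-fold at the upper step, with a median of -0.04, which was -0.12 without libraries 1 and 2 and 0.04 without library 4. At the lower step 3 passed, where 1.36% of all genes passed as lower, all lower at 2500 ppm: Cdc20, the activator of the anaphase-promoting complex, by -0.43, Aurka by -0.40 and Plk1, both mitotic kinases, by -0.46 (adjusted p = 0.0443 for each). They belong to the same set of lower-step calls, which came to 0 without any one of 11 libraries and with the replicate number as a block. Their upper-step values were -0.01 (95% interval -0.19 to 0.18), -0.06 (-0.25 to 0.13) and -0.03 (-0.24 to 0.18). Cdc20 was at 192, 174, 151 and 142 CPM at 10000 ppm, 145 to 177 CPM at 2500 ppm and 198 to 247 CPM at 1250 ppm. The 10000 and 2500 ppm ranges overlapped and the 1250 ppm range lay above both. Cdc20, Aurka and Plk1 were named because they passed at the lower step, which shares the 2500 ppm libraries with the upper one. That choice can itself bring their upper-step values toward or above 0, so the values do not show that the response levels off. Of the other members Aurkb had -0.10 (SE 0.06), Ccnb1, a mitotic cyclin, -0.10 (SE 0.08), Bub1b -0.07 (SE 0.05) and Mki67 0.12 (SE 0.10).

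**Figure D5:**
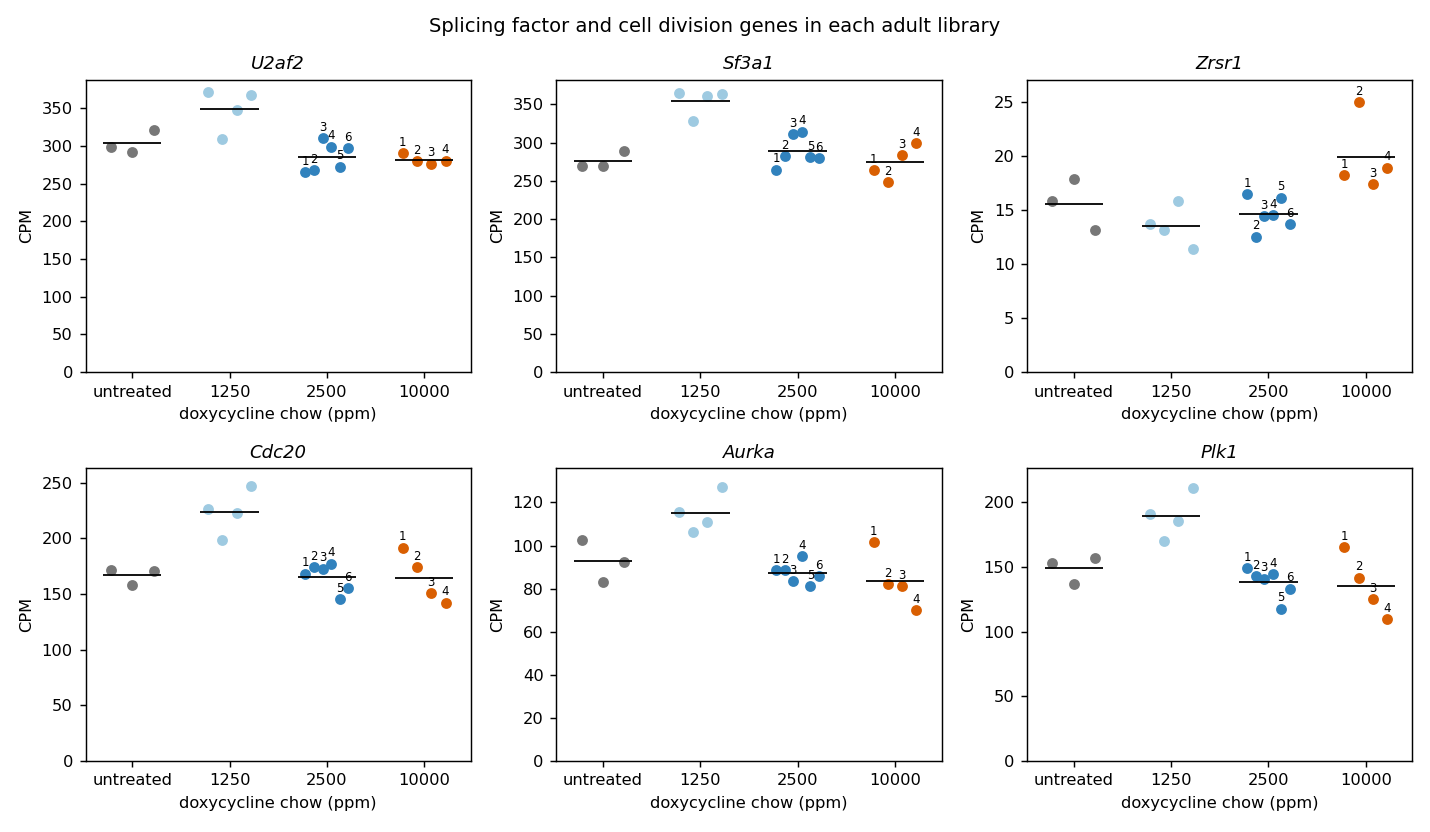
CPM (y axis from 0) of 3 splicing factor genes and 3 cell division genes in each adult library by dose; points are libraries, numbered at 2500 and 10000 ppm, and lines are group means. For Cdc20 the 1250 ppm libraries (198 to 247 CPM) lie above those at 2500 ppm (145 to 177 CPM), and the 10000 ppm libraries (142 to 192 CPM) overlap the latter; Zrsr1 is the one gene of the 6 whose 10000 ppm libraries all lie above the 2500 ppm ones. All but Zrsr1 passed at the lower step, which shares the 2500 ppm libraries, so their shape here does not show that the response levels off.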

How the data were processed

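Per the labels' protocols, RNA from sorted cells was depleted of ribosomal RNA and read as paired ends. The deposited table held raw whole-number counts per Ensembl gene, which the authors obtained after mapping with HISAT2 2.1.0 to GRCm38, per the labels' design text. The counting tool, annotation release, use of strand and gene filter are not given in the sources used here. The table held 27728 genes, and 27668 IDs had a symbol in GENCODE M21.

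All 17 adult libraries were fitted together with edgeR 4.0.16 (filterByExpr, TMM, quasi-likelihood test, Benjamini-Hochberg adjustment, threshold 0.05), which left 13338 genes. DESeq2 1.42.0 was the other tool. CPM used TMM-scaled totals, and log2 CPM a prior count of 2. The script was tested on simulated data. The 15 fetal libraries were not used, and no single-gene permutation test was run. The members and gene lists were chosen with earlier results of these data known. Named genes were the 8 with the smallest p per direction (among genes averaging 50 counts or more in the group where they stood higher) and the 4 with the smallest p per list, of which 1 is not reported here; Itgam, Kit, Ngp, Ltf, U2af2, Cdc20, Aurka and Plk1 were added after their values were seen. Intervals for single genes came from the size of the fold change over the root of F. The alternatives were other size factors, filters, tools, groups in the fit, a replicate block, and leaving out each library.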

Additional observations from a re-analysis of the deposited data

Results flagged for a closer look

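Within the groups of 4 and 6 libraries, a gap between the extreme library and its nearest neighbour above Dixon's 95% critical value was looked for in 250 groups of values, and 12 had one. Chance alone gives about 1 in 20, or 12.5, so the number of such gaps is no more than chance would give. At 10000 ppm, library 2 was the lowest for the 3' splice-site factors (7.67 mean log2 CPM, the next at 7.75) and the highest for Hbb-bt (420 CPM, the next at 9.44 CPM). Library 4 was the lowest for Etfb (90.8 CPM) and Cebpa (184 CPM) and the highest for Mycn (12.3 CPM), and library 1 the lowest for Fam210b (13.6 CPM). At 2500 ppm, library 4 was the highest for Slc25a38 (32.05 CPM) and the lowest for Prss57 (218 CPM) and Retnlg (3.60 CPM). Library 2 there was the lowest for the splice-site factors (7.68 mean log2 CPM) and the highest for Adgre1 (22.4 CPM), and library 1 the lowest for Ddost (533 CPM).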

How the results depend on the processing

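The 0 genes between 10000 and 2500 ppm became 50 in DESeq2 and 0 to 20 when 1 library was left out, with 4 of the 17 omissions giving any; under the other alternatives it was 0. The 255 genes between 2500 and 1250 ppm became 1106 in DESeq2, 153 with RLE factors, 157 with genes over 1% of a library left out, 29 with a 2-fold minimum, 0 with no filter on low counts, and 0 to 926 with 1 library left out. The 2420 genes between 10000 and 1250 ppm became 1533 with no filter, 654 with a 2-fold minimum, 1052 with the compared groups alone, and 1118 to 2809 with 1 library left out. The step difference called 0 genes in every fit run, including that per doubling of the dose. Counts of genes with an interval within 2-fold stayed within 1.5 times in all fits run. The causes were not tested.

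Whether replicate numbers pair the libraries was not settled, as pairs of unlike number were not read beside them. Of 19 same-numbered pairs 6 correlated above 0.1 (-0.27 to 0.52). Between the 10000 and 2500 ppm groups 3 of the 4 pairs did (0.34, 0.33 and 0.52) and the pair numbered 3 did not (-0.27). With the number as a replicate block the counts were 0 for 10000 minus 2500 ppm (1024 unadjusted), 0 for 2500 minus 1250 ppm and 1184 for 10000 minus 1250 ppm.

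With the 10000 ppm libraries 1 and 2 left out, chosen after seeing the data, 154 genes passed between 2500 and 1250 ppm and 769 between 10000 and 1250 ppm. List medians became -0.46 (B-cell), -0.004 (T and NK cell), -0.38 (eosinophil), -0.30 (myeloid factors), -0.74 (later granule) and -0.55 (plasma cell). The log2 fold changes that turned sign were Alox15 -0.18, Btg2 -0.052, Cd22 -0.21, Cd3d -0.65, Cd74 -0.002, Col1a1 -0.93, Csf1 -0.12, E2f2 -0.57, Il7r -0.13, Irf4 -0.46, Ltf -0.70, Ly6g -0.78, Mmp8 -0.50, Mmp9 -0.48, Mzb1 -1.36, Ngp -0.81, Prg2 -0.67, Prg3 -0.48, Retnlg -0.67, Rrm2b -0.063, Sf3a1 0.02, Sf3a3 0.03, Slc40a1 -0.24, Slc7a11 -0.48, Trp53inp1 -0.006 and Zeb2 0.048. With the later granule level as a covariate, also added afterwards, 1 gene passed at the lower step and 988 over both, the eosinophil median was 0.31 and the later granule one -0.046, and the signs of Ltf (-0.048), Ngp (-0.12), Mzb1 (-0.14), Slc40a1 (-0.045) and U2af2 (0.002) turned. The mean of the heme list was 0.42. Values near 0 also changed sign. Cdc20 was 0.011 in DESeq2, with RLE factors and with genes over 1% left out, 0.015 with low genes (mean under 50 counts) left out and 0.003 in the compared groups, and U2af2 0.00, 0.00, 0.001 and 0.004 in the first 4 of these. Leaving out 1 library gave -0.087 to 0.071 for Cdc20, -0.034 to 0.009 for U2af2, -0.165 to 0.032 for Aurka, -0.136 to 0.076 for Plk1, -0.082 to 0.126 for Kit and -0.06 to 0.751 for Il1rl1.

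The 10 libraries held at least 32.5 M counts each, and the median SE of a log2 difference between the groups, 0.17, reflects the spread between libraries as well as depth.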

Other observations

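Transcripts of B cells were lower in the untreated wild-type libraries than at any dose. As the mean log2 CPM of the B-cell list, the 3 untreated libraries lay at -2.60 to -0.47, the 1250 ppm libraries at 0.69 to 1.04, the 2500 ppm libraries at -0.14 to 2.01 and the 10000 ppm libraries at 0.42 to 2.56. For tissue macrophage genes the direction depended on the measure. Their mean log2 CPM was 0.46 to 1.10 in the untreated group, 2.46 to 4.48 at 2500 ppm and 1.67 to 4.33 at 10000 ppm, while their summed CPM was 463 to 540, 209 to 478 and 191 to 540. Of the 13 tested members, 1 passed as higher than untreated at each of these doses. Of the 15 tested B-cell genes, 7 passed as higher than untreated at 10000 ppm and 6 at 2500 ppm. Over all 13338 tested genes, 127 passed as higher at 10000 ppm and 46 at 2500 ppm. Genotype, pIpC and doxycycline all differ from the untreated group at once and cannot be told apart, and the list levels themselves were not tested.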
